A study of Mus musculus with 15 samples.

Results

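The nuclear-encoded subunits of the mitochondrial respiratory chain and ATP synthase were examined in endothelial cells, the lining of blood vessels, sorted from brain, heart and liver. All genes were taken whose single symbol in the array's annotation begins with Nduf followed by a, b, c, s or v and a digit, with Cox4 to Cox8, with Uqcr or with Atp5, or is Sdha, Sdhb, Sdhc or Sdhd. This gave 81 of 19938 genes, each read by the probe set with the highest mean. Assigned by symbol, they comprise 35 genes of complex I, 4 of complex II, 8 of complex III, 17 of complex IV and 17 of ATP synthase. Cox7c, Ndufb4 and Ndufb4b lie only on probe sets that carry several symbols and were not analysed here. Of the 81 genes, 8 encode isoforms known for particular tissues or states (Cox4i2, Cox6a2, Cox6b2, Cox7a1, Cox7b2, Cox8b, Cox8c and Ndufa4l2). They were set apart from the other 73, called the common subunits below.

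The cells came from Tie2-GFP mice on an FVB background, aged 8 to 12 weeks. They express green fluorescent protein (GFP) from the Tie2 (Tek) promoter, active in endothelium, and the GFP-positive fraction was sorted. There were 5 arrays each of brain (pools of 6 mice), heart (pools of 4 mice) and liver (pools of 2 mice), with males and females mixed 1:1, and no group received a treatment. Brain and heart were digested with collagenase at 37 °C and liver with dispase at room temperature, so tissue, enzyme, temperature and pool size cannot be told apart. Values are log2 expression values, and the medians of the 15 arrays lay between 5.98 and 6.11. Means of 21 pan-endothelial markers were 9.87 to 10.26 in the brain arrays, 10.02 to 10.15 in the heart arrays and 10.07 to 10.25 in the liver arrays. Markers of other cells were also present. The mean of 20 cardiomyocyte markers was 5.84 to 6.01 in brain, 7.32 to 8.66 in heart and 5.66 to 5.92 in liver, and 18 of the 20 exceeded both other tissues in heart. The mean of 13 hepatocyte markers was 5.56 to 5.68 in brain, 4.98 to 5.10 in heart and 6.94 to 7.63 in liver, and that of 11 macrophage and Kupffer cell markers was 5.14 to 5.29, 5.10 to 5.47 and 5.58 to 8.51 in the same 3 tissues. Means of neuron, astrocyte and oligodendrocyte markers lay between 4.69 and 5.92 in every array. In pooled cells of this kind, fewer cells of a type and less RNA per cell cannot be told apart.

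The respiratory chain passes electrons from NADH through complex I, or from succinate through complex II, to coenzyme Q, and then through complex III, cytochrome c and complex IV to oxygen. Complexes I, III and IV pump protons across the inner mitochondrial membrane, and ATP synthase uses the returning protons to make ATP. Endothelial cells are known to draw much of their ATP from glycolysis, while cardiomyocytes and hepatocytes are rich in mitochondria. Several complex IV subunits exist as a pair of isoforms, 1 of them typical of heart and skeletal muscle.

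The common subunits were highest in the liver arrays, and the brain and heart arrays differed little from each other. The mean of the 73 common subunits was 9.42 to 9.65 in the 5 brain arrays (9.50 ± 0.09, SD, n = 5), 9.45 to 9.58 in the heart arrays (9.50 ± 0.05) and 9.65 to 9.90 in the liver arrays (9.79 ± 0.10). The lowest liver array, replicate 2 at 9.65, equalled the highest brain array, replicate 5. The liver mean was the highest of the 3 for 67 of the 73, whereas liver was highest for 34.2% of all genes.

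**Figure D1:**
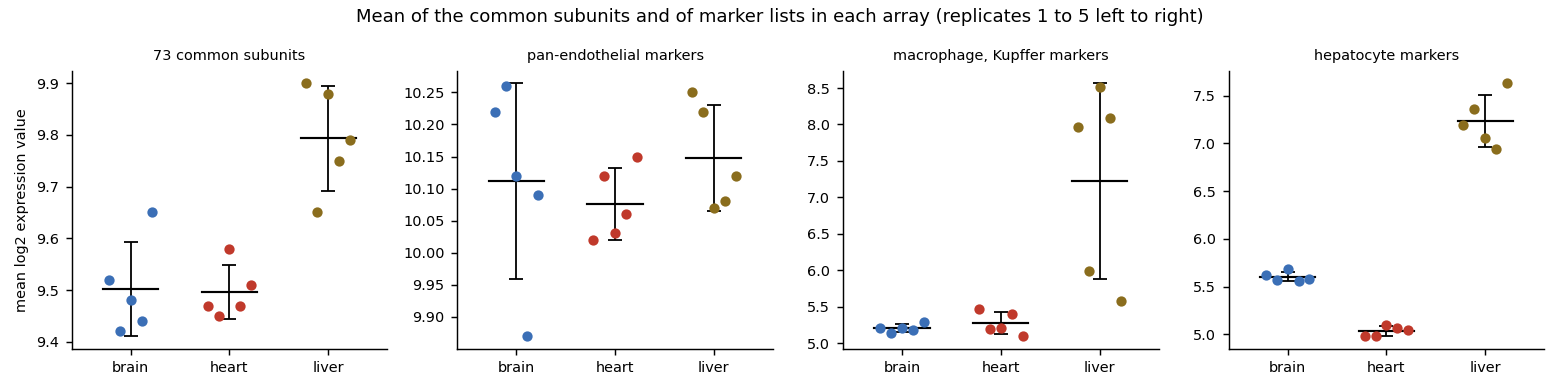
Mean log2 expression value of the 73 common subunits and of 3 marker lists in each array (points, replicates 1 to 5 from left to right), with the mean and SD of each tissue in black; the axes do not start at 0. The common subunits sit at 9.65 to 9.90 in liver against 9.42 to 9.65 in brain and 9.45 to 9.58 in heart, and the macrophage markers are highest in liver replicates 1, 3 and 4.

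Means below are given ± SD over 5 arrays. Tests were made with limma over all 19938 genes, with Benjamini-Hochberg adjustment within each contrast and a threshold of 0.05. Between brain and heart, 1 member was higher in brain (background 8.29% of all genes), 7 were lower (background 7.11%) and 73 were not called. Between brain and liver, 1 member was higher in brain (11.1%) and 37 were lower (14%). Between heart and liver, 5 members were higher in heart (11.5%) and 42 were lower (16.3%). That last split of 5 higher and 42 lower became 7 higher and 14 lower when quantile normalization was repeated on the deposited values. There 17.3% of the members were lower, near the 13.8% of all genes, and 8.64% were higher, beside 13.5%. All genes include many of low value, and a filter kept the 10843 whose highest tissue mean exceeded the median level. Of these, 23.6% were lower in brain than in liver and 28.9% lower in heart, beside 39 and 44 of the 78 members kept (50% and 56.4%). In all, 30 members were higher in liver than in both other tissues (10.4% of all genes), 5 exceeded both others in heart (3.73%), 2 were lower in brain than in both (2.82%), 1 was lower in liver than in both (5.64%), and 26 were not called in any contrast.

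The differences of the common subunits were small. Their median log2 difference was 0.01 for brain minus heart, -0.30 for brain minus liver and -0.30 for heart minus liver, with extremes of -0.81 and 0.51, while the medians over all genes were -0.03, -0.00 and 0.03. Every brain array lay below every liver array for 25 members (10.3% of all genes), and every heart array lay below every liver array for 28 (11.8%). Of the 30 members higher in liver than in both, 12 were so when quantile normalization was repeated, 13 with the arrays centred on the pan-endothelial list and 9 without liver replicates 1, 3 and 4; each of these sets lies within the 30.

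**Figure D2:**
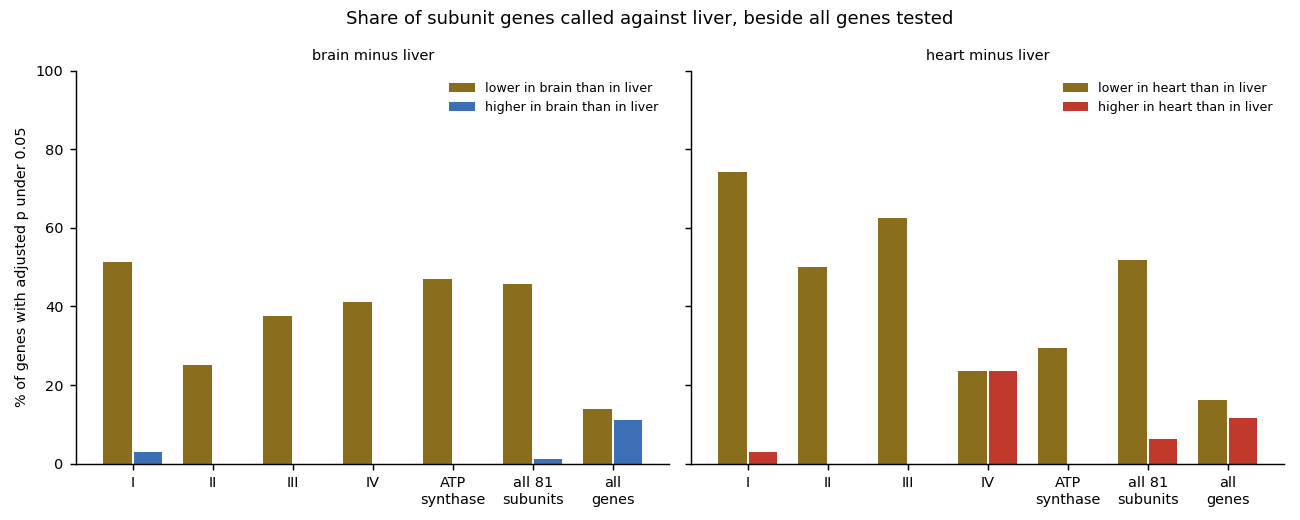
Share of the genes of each complex, of all 81 subunit genes and of all 19938 genes that were lower or higher in brain than in liver (left) and in heart than in liver (right), at an adjusted p under 0.05, with the y axis from 0 to 100%. Among all 81, 45.7% were lower in brain and 51.9% lower in heart, beside 14% and 16.3% of all genes. Among genes kept by a filter on low values, not drawn, these were 50% and 56.4% of members, beside 23.6% and 28.9% of genes. With quantile normalization repeated, not drawn, 17.3% of members were lower in heart than in liver, beside 13.8% of genes.

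**Figure D3:**
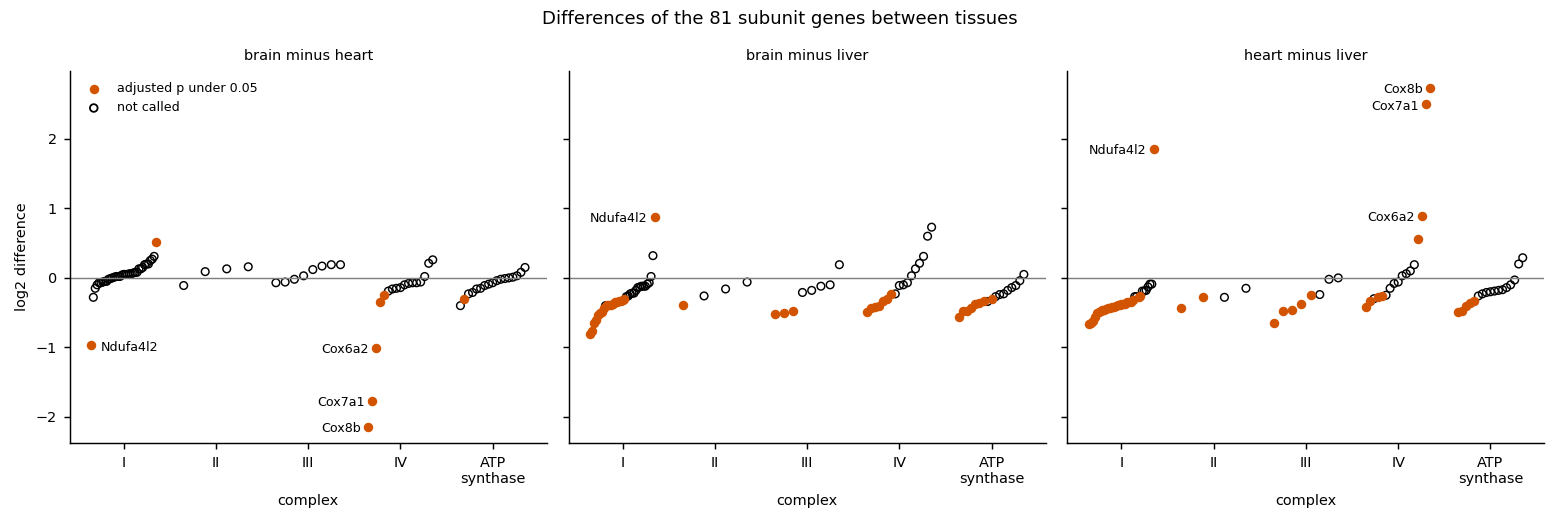
Log2 differences of the 81 subunit genes for the 3 contrasts, by complex, with filled points for an adjusted p under 0.05 and open points for genes not called; genes with a difference beyond 0.85 that stand apart are named. Most points of the middle and right panels lie below 0, and Cox8b, Cox7a1, Ndufa4l2 and Cox6a2 have the 4 largest differences in both contrasts with heart.

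Cox8b and Cox7a1, isoforms typical of muscle, had the largest differences of the members in both contrasts with heart, and Cox6a2, another such isoform, was also high in the heart arrays. Cox7a1, the heart and skeletal muscle form of a small complex IV subunit, had log2 values of 6.86, 6.88, 6.02, 6.05 and 6.02 in brain, 10.19, 8.27, 8.71, 7.09 and 6.41 in heart, and 5.78, 5.62, 5.63, 5.82 and 5.32 in liver. Heart replicates 1 to 4 lay above every brain and liver array, whereas replicate 5 lay within the brain values and above the liver values. Brain minus heart was -1.77 (SE 0.48, adjusted p = 0.0168) and heart minus liver was 2.50 (adjusted p = 0.000692), while brain minus liver was 0.73 (adjusted p = 0.332). Every brain array lay above every liver array, and this difference was called with only brain and liver in the fit (adjusted p = 0.0117). Without heart replicates 1 and 3 together, brain minus heart was -0.89 (adjusted p = 0.0858).

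Cox8b, the muscle form of subunit VIII, had values of 5.80, 5.49, 6.03, 5.38 and 6.56 in brain, 9.65, 7.72, 9.0, 6.58 and 7.01 in heart, and 4.97, 5.08, 5.40, 5.29 and 5.51 in liver. All 5 heart arrays lay above all others, the lowest by little. Brain minus heart was -2.14 (SE 0.44, adjusted p = 0.00195) and heart minus liver was 2.74 (adjusted p = 0.000109). Cox6a2, the muscle form of subunit VIa, had values of 6.58, 6.84, 6.26, 6.50 and 6.79 in brain, 8.35, 7.47, 7.58, 7.10 and 7.52 in heart, and 6.59, 6.49, 6.40, 7.02 and 7.04 in liver, so that no heart array overlapped the other tissues. Brain minus heart was -1.01 (SE 0.19, adjusted p = 0.00104) and heart minus liver was 0.89 (adjusted p = 0.00175). Cox7a1 and Cox8b were the 2 members above both other tissues by at least 1 on the log2 scale, against 0.908% of all genes, and without heart replicates 1 and 3 Cox8b alone was.

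Among the heart arrays, Cox7a1 had the same order as 3 lists of markers of other cells. The mean of the 20 cardiomyocyte markers in heart replicates 1 to 5 was 8.66, 7.87, 8.32, 7.34 and 7.32. That of 15 pericyte and smooth muscle markers was 7.97, 7.27, 7.66, 7.18 and 6.61, and that of 9 fibroblast markers was 7.62, 6.85, 7.09, 6.82 and 6.38. Heart replicates 1 and 3 were the highest in Cox7a1, in Cox8b and in all 3 lists. The fibroblast mean was 5.42 to 6.02 in brain, 6.38 to 7.62 in heart and 5.42 to 5.95 in liver, and 5 of the 9 exceeded both other tissues in heart. Among the cardiomyocyte markers, Tnnt2, which encodes cardiac troponin T, averaged 6.28 ± 0.17 (brain), 11.36 ± 0.79 (heart) and 6.28 ± 0.17 (liver). The part of cardiomyocyte, pericyte, smooth muscle or fibroblast RNA in these differences was not tested.

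**Figure D4:**
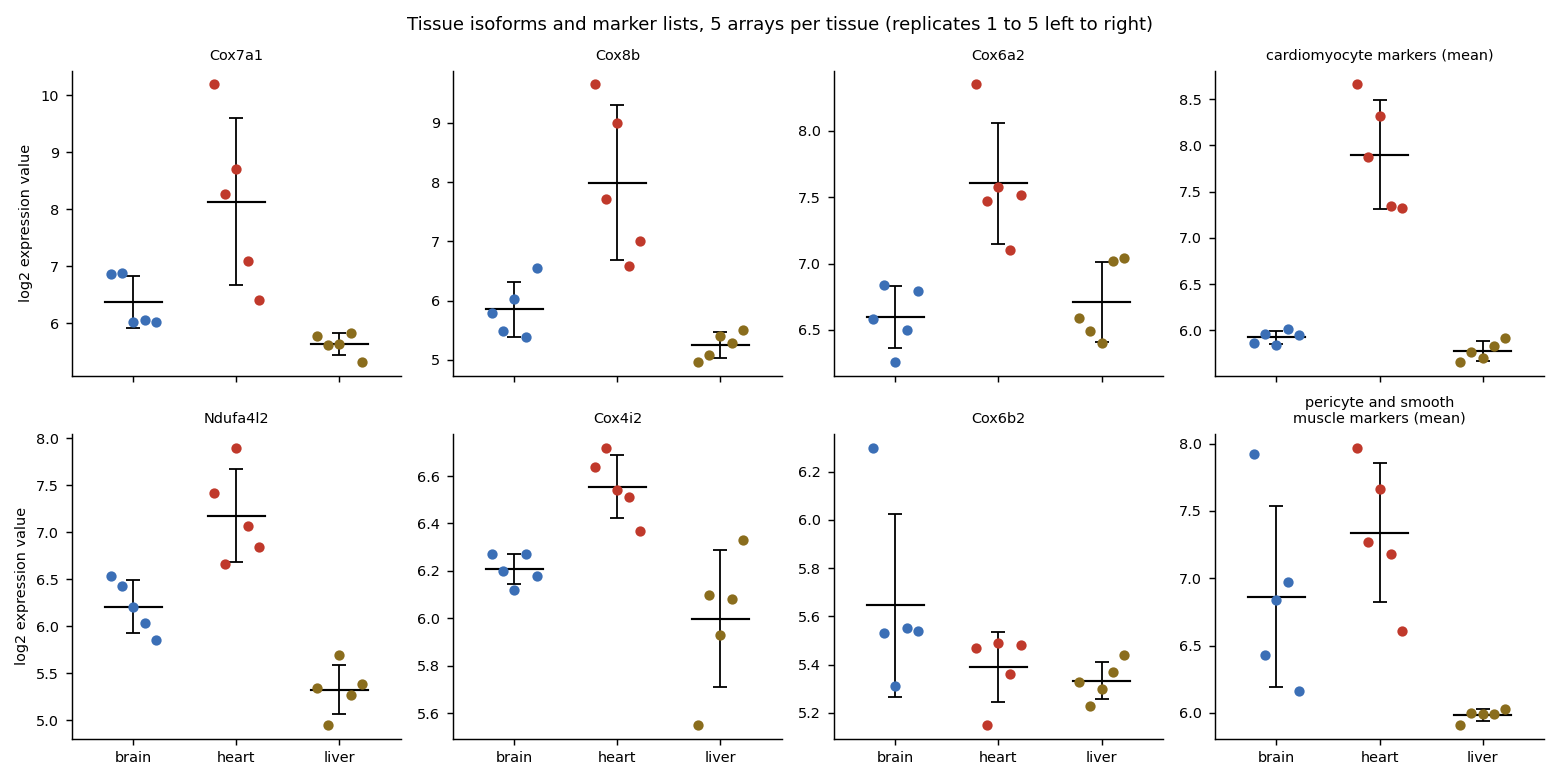
Log2 expression values of 6 tissue isoforms and mean log2 values of 2 marker lists in each array (points, replicates 1 to 5 from left to right), with the mean and SD of each tissue in black; the axes do not start at 0. The heart arrays spread from 6.41 to 10.19 for Cox7a1 and from 7.32 to 8.66 for the cardiomyocyte markers, with replicates 1 and 3 highest in both.

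Ndufa4l2, a relative of Ndufa4 known to be induced by hypoxia-inducible factor and to be abundant in pericytes, differed between all 3 tissues. Its values were 6.53, 6.43, 6.20, 6.03 and 5.85 in brain, 7.42, 6.66, 7.90, 7.07 and 6.84 in heart, and 5.34, 4.95, 5.69, 5.27 and 5.38 in liver, and no array of 1 tissue overlapped those of another. Brain minus heart was -0.97 (SE 0.20, adjusted p = 0.00212), brain minus liver was 0.88 (adjusted p = 0.00274) and heart minus liver was 1.86 (adjusted p = 1.34e-06). It was the only member lower in liver than in both other tissues. The mean of 15 pericyte and smooth muscle markers was 6.16 to 7.92 in brain, 6.61 to 7.97 in heart and 5.91 to 6.03 in liver, and 3 of the 15 exceeded both other tissues in heart. The markers of this list did not share 1 order of the tissues, but all except Kcnj8 and Abcc9 were lowest in liver. Rgs5 averaged 8.73 ± 1.01 (brain), 10.47 ± 0.59 (heart) and 6.93 ± 0.97 (liver). Myl9 was highest in brain, at 9.11 ± 1.16, 8.52 ± 0.51 and 6.02 ± 0.40 in the same tissues. Abcc9 alone was highest in liver, at 6.11 ± 0.51, 8.41 ± 1.09 and 8.72 ± 0.26. The part of pericyte RNA in the Ndufa4l2 values was not tested.

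Cox4i2, the isoform of subunit IV known for its use at low oxygen and in lung, had values of 6.12 to 6.27 in brain (median 6.20), 6.37 to 6.72 in heart and 5.55 to 6.33 in liver. Heart minus liver was 0.56 (SE 0.11, adjusted p = 0.00111), and brain minus heart was -0.35 (adjusted p = 0.0478), a call that was lost in 16 of 25 alternatives. The testis isoforms Cox6b2 and Cox8c lay between 5.15 and 6.30 and between 5.21 and 5.65, and Cox7b2 between 3.48 and 3.87, without a call in any contrast.

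The common partners of the muscle isoforms differed the other way or little. Cox8a had values of 8.41, 8.36, 8.12, 8.29 and 8.22 in brain, 8.20, 8.21, 8.30, 8.23 and 8.36 in heart, and 8.73, 8.58, 8.72, 8.60 and 8.76 in liver. All liver arrays lay above all others. Brain minus liver was -0.40 (SE 0.07, adjusted p = 0.000377) and heart minus liver was -0.42 (adjusted p = 0.00024). Cox6a1 averaged 11.25 ± 0.20 (brain), 11.40 ± 0.13 (heart) and 11.74 ± 0.13 (liver). It was lower in brain than in liver (difference -0.49, adjusted p = 0.00106) and lower in heart than in liver (-0.34, adjusted p = 0.0168, and -0.22, adjusted p = 0.0801, with quantile normalization repeated). Cox7a2 averaged 9.52 ± 0.07 (brain), 9.76 ± 0.09 (heart) and 9.82 ± 0.12 (liver). It was lower in brain than in both, with -0.24 for brain minus heart (adjusted p = 0.0347) and -0.30 for brain minus liver (adjusted p = 0.00575), and the call against heart was lost in 10 of 25 alternatives.

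The promoters of Cox7a1, Cox8b, Cox8a, Ndufb6 and Atp5h are shown because the first pair was high in heart and the other 3 were high in liver. Each window runs from 250 bases before to 50 bases after the start of the gene in RefSeq (GRCm38.p6), 5′ to 3′ on the gene's strand, and capitals mark matches to the NRF1 motif core GCNTGCG or the ETS motif CCGGAAG on either strand. NRF1 and ETS factors such as GABP are known regulators of respiratory chain genes. The windows lie at chr7:30183921-30184220 (plus strand) for Cox7a1, chr7:140900397-140900696 (minus) for Cox8b, chr19:7217567-7217866 (minus) for Cox8a, chr4:40279372-40279671 (minus) for Ndufb6 and chr11:115419870-115420169 (minus) for Atp5h.
Cox7a1: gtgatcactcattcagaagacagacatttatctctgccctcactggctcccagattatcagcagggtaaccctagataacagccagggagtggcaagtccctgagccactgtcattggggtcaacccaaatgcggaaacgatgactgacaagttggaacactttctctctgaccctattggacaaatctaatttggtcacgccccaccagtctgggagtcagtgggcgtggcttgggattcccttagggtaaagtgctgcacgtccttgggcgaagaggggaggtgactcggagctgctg
Cox8b: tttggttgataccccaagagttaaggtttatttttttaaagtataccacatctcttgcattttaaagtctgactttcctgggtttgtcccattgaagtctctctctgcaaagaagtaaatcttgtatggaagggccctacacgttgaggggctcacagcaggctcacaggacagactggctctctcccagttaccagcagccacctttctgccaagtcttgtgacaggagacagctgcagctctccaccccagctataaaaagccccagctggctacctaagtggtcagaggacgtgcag
Cox8a: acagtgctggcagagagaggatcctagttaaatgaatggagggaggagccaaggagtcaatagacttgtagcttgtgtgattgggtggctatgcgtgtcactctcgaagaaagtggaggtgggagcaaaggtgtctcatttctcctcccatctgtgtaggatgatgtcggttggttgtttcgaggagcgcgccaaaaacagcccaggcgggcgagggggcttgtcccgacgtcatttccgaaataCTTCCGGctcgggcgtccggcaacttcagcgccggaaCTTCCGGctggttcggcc
Ndufb6: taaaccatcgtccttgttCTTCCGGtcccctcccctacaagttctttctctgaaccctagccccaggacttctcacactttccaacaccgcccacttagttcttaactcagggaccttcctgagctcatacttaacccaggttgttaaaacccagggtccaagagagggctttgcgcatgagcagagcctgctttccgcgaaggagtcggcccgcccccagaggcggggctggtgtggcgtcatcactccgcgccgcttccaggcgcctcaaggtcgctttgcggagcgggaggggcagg
Atp5h: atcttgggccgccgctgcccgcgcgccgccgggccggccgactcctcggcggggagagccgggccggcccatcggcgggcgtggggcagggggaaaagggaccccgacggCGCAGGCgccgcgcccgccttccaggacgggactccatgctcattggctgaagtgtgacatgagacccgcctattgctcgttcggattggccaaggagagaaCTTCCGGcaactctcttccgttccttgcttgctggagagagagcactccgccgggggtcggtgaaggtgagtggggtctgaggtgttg
The windows of Cox7a1 and Cox8b held neither motif, that of Cox8a held 2 ETS matches, that of Ndufb6 held 1, and that of Atp5h held 1 of each. These genes were picked and do not stand for all liver-high members. The windows of Ndufs4, Ndufb8, Ndufb3 and Ndufb5, also higher in liver than in both other tissues, held neither motif.

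RefSeq windows matched 66 of the 81 members. Among the 62 common subunits with a window, 31 held the NRF1 core (50%), against 25.3% of the 15614 genes of the array with a window, and 17 held the ETS motif (27.4%), against 13.6%. The NRF1 core was chosen after a longer, palindromic form of the motif had been searched, which was held by 16 of the 62 (25.8%), against 7.85% of the array's genes. Among the 27 members with a window that were higher in liver than in both other tissues, 11 held the NRF1 core (40.7%) and 10 the ETS motif (37%), against 20 (57.1%) and 7 (20%) of the other 35 common subunits. Both motifs occurred in 10 of the 62, and no NRF1 match overlapped an ETS match in the windows of the members. Neither was present in the windows of the 4 tissue isoforms that had one. A motif of MEF2, a factor of muscle gene transcription, was in none of those 4 and in 1 of the 62 (1.61%), against 4.15% of the array's genes. The core ACGTG bound by hypoxia-inducible factor was found in 15 of the 62 (24.2%), near the 24.4% of all, and in 2 of the 4 tissue isoforms, Cox7a1 and Cox8b. These are matches of letters in a fixed window and not binding sites.

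Complex I, which takes electrons from NADH, held the largest number of liver-high members and also the most common subunits, 34 of the 73. Of its 34 common subunits, 18 were lower in brain than in liver (beside 14% of all genes) and 26 were lower in heart than in liver (16.3%). Higher in liver than in both were 18 (10.4%). The same shares of all genes stand beside the counts of each complex below. With quantile normalization repeated, 14 of all 81 members were lower in heart than in liver, fewer than the 26 of complex I here. Among the 6 measured core subunits, which carry the flavin or iron-sulphur clusters or line the electron path, 2 were lower in brain than in liver (Ndufs8 and Ndufv2) and 5 were lower in heart (Ndufs3, Ndufs7, Ndufs8, Ndufv1 and Ndufv2). The sixth, Ndufs1, had differences of -0.26 and -0.27 (adjusted p = 0.0674 and 0.0517). Among the 28 accessory subunits 16 were lower in brain than in liver and 21 lower in heart. Complexes were assigned by symbol, so the 34 and the 28 include Ndufa4, which was called in both contrasts and is described below.

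The Ndufb subunits, which belong to the membrane arm of complex I, included the largest differences of the common members. Of 9 measured, 7 were higher in liver than in both other tissues, with a median of -0.50 for brain minus liver and -0.48 for heart minus liver. Ndufb9 had values of 9.89, 9.97, 9.70, 9.83 and 9.84 in brain, 9.98, 10.17, 10.13, 9.79 and 9.92 in heart, and 10.79, 10.55, 10.73, 10.59 and 10.63 in liver. Every liver array lay above every other array, while brain and heart overlapped. Brain minus liver was -0.81 (SE 0.08, adjusted p = 7.14e-07) and heart minus liver was -0.66 (adjusted p = 1.04e-05), differences of 1.75-fold and 1.58-fold.

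Ndufb6, Ndufb8 and Ndufs4 were picked after their values were seen. Ndufb6, another membrane arm subunit, had values of 10.18, 10.08, 9.85, 10.05 and 9.84 in brain, 10.01, 10.28, 10.15, 9.90 and 10.13 in heart, and 10.76, 10.66, 10.68, 10.54 and 10.61 in liver. All liver arrays lay above all others, and the differences were -0.65 for brain minus liver (adjusted p = 1.61e-05) and -0.56 for heart minus liver (adjusted p = 0.000103). Ndufs4, an accessory subunit of the matrix arm whose loss causes Leigh syndrome in humans, averaged 9.45 ± 0.19 (brain), 9.42 ± 0.13 (heart) and 10.04 ± 0.08 (liver). Brain minus liver was -0.60 (SE 0.09, adjusted p = 8.05e-05) and heart minus liver was -0.62 (adjusted p = 5.89e-05), without overlap with liver. Ndufb8 averaged 8.85 ± 0.23, 9.12 ± 0.09 and 9.61 ± 0.12 in brain, heart and liver. Its differences were -0.77 for brain minus liver (adjusted p = 1.21e-05) and -0.49 for heart minus liver (adjusted p = 0.00126). Without liver replicates 1, 3 and 4, heart minus liver was -0.40 (adjusted p = 0.0615).

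Ndufa7, an accessory subunit of the matrix arm, was the only member higher in brain than in heart. Its values were 8.84, 8.55, 8.41, 8.40 and 9.18 in brain, 8.24, 7.82, 8.13, 8.22 and 8.41 in heart, and 8.62, 8.01, 8.36, 8.53 and 8.27 in liver. Brain replicates 3 and 4 lay level with the highest heart array, and the difference of 0.51 (SE 0.15, adjusted p = 0.0301) lost its call in 7 of 25 alternatives. Ndufa4, long listed with complex I and now counted as a complex IV subunit, was lower in brain than in liver and lower in heart than in liver, with a difference of -0.35 in each case (adjusted p = 0.00184 and 0.00192). Both calls were lost with pan-endothelial centring (-0.31 and -0.28, adjusted p = 0.0562 and 0.0868). They were also lost without liver replicates 1, 3 and 4 (-0.32 in each case, adjusted p = 0.0501 and 0.0534). With quantile normalization repeated, heart minus liver was -0.22 (adjusted p = 0.0564).

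**Figure D5:**
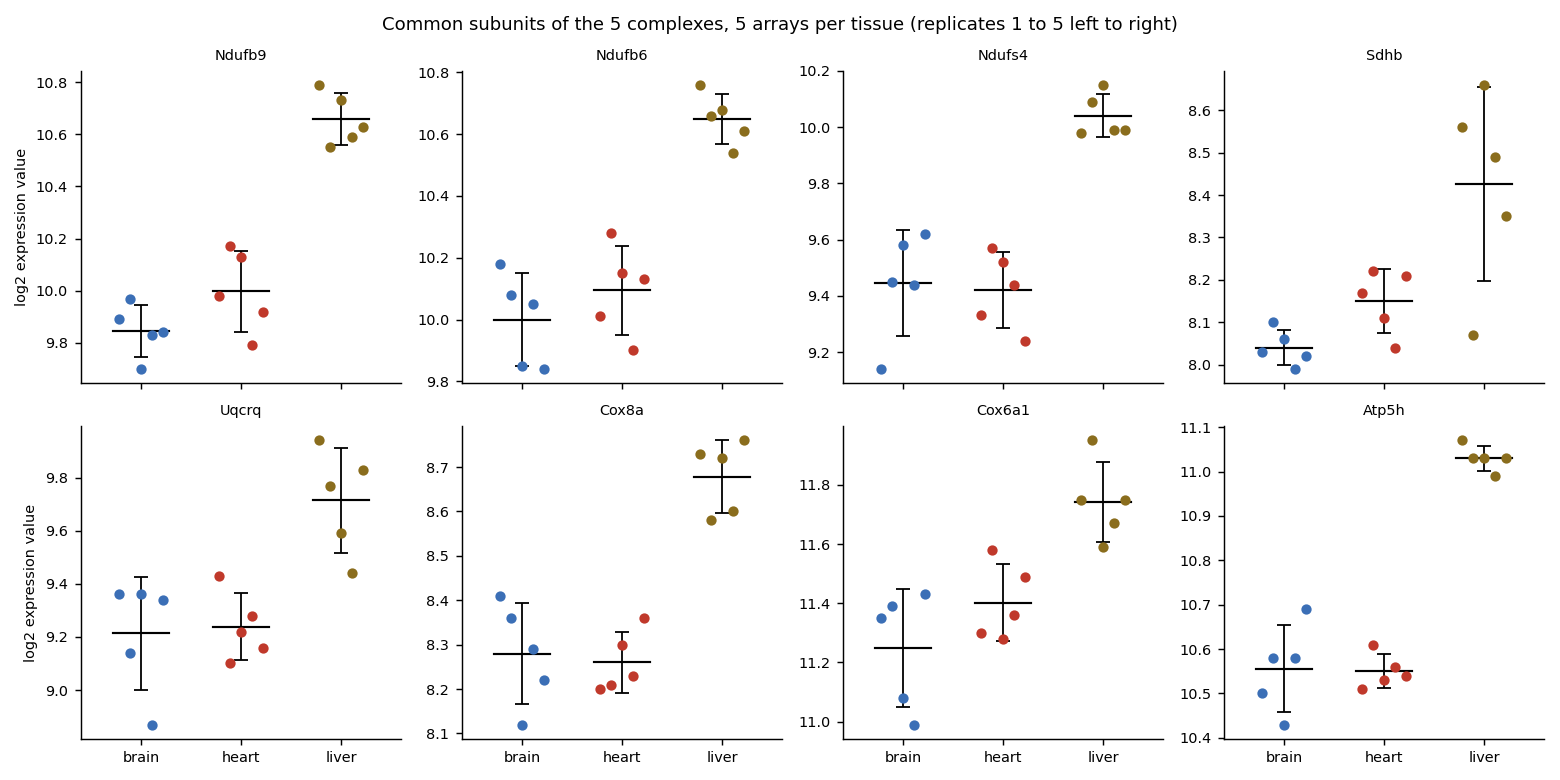
Log2 expression values of 8 common subunits of complexes I to IV and ATP synthase in each array (points, replicates 1 to 5 from left to right), with the mean and SD of each tissue in black; the axes do not start at 0. Every liver array lies above every brain and heart array for Ndufb9, Ndufb6, Ndufs4, Uqcrq, Cox8a, Cox6a1 and Atp5h, whereas liver replicate 2 of Sdhb, at 8.07, lies within the other tissues.

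Complex II, succinate dehydrogenase, is shared with the tricarboxylic acid cycle and has 4 subunits. Sdhb, its iron-sulphur subunit, had values of 8.03, 8.10, 8.06, 7.99 and 8.02 in brain, 8.17, 8.22, 8.11, 8.04 and 8.21 in heart, and 8.56, 8.07, 8.66, 8.49 and 8.35 in liver. Liver replicate 2 lay within the other tissues and the remaining liver arrays lay above them. Brain minus liver was -0.39 (SE 0.09, adjusted p = 0.0045) and heart minus liver was -0.28 (adjusted p = 0.0355). Without liver replicates 1, 3 and 4 these were -0.17 and -0.06 (adjusted p = 0.306 and 0.795), and the heart call was lost in 12 of 25 alternatives. Sdha, the flavoprotein subunit, was lower in heart than in liver (difference -0.43, adjusted p = 0.00326, and -0.34, adjusted p = 0.109, without liver replicates 1, 3 and 4), with -0.26 for brain minus liver (adjusted p = 0.0613). The membrane anchors Sdhc and Sdhd had differences from liver of -0.06 and -0.16 in brain and -0.15 and -0.28 in heart, none of them called.

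Complex III hands electrons to cytochrome c. Of its 8 members, 3 small accessory subunits (Uqcrq, Uqcr10 and Uqcr11) were higher in liver than in both other tissues, and Uqcrb and the core subunit Uqcrc1 were lower in heart than in liver only. Uqcrq had values of 9.36, 9.14, 9.36, 8.87 and 9.34 in brain, 9.43, 9.10, 9.22, 9.28 and 9.16 in heart, and 9.94, 9.77, 9.59, 9.44 and 9.83 in liver. The lowest liver array, replicate 4, lay just above the highest heart array. Brain minus liver was -0.50 (SE 0.11, adjusted p = 0.00246) and heart minus liver was -0.48 (adjusted p = 0.00362). Uqcr10 had 9.52, 8.46, 9.42, 9.33 and 9.08 in liver, where replicate 2 lay below every brain and heart array. Its differences of -0.52 for brain and -0.46 for heart (adjusted p = 0.0207 and 0.039) were -0.13 and -0.07 without liver replicates 1, 3 and 4. The Rieske protein Uqcrfs1, the core subunit Uqcrc2 and the hinge protein Uqcrh were not called, with differences between -0.24 and 0.19.

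Complex IV reduces oxygen to water, and 10 of its members by symbol, Ndufa4 not among them, are common subunits. Of these, 7 were lower in brain than in liver (Cox4i1, Cox5b, Cox6a1, Cox6b1, Cox6c, Cox7a2 and Cox8a), and 4 were lower in heart than in liver (Cox5b, Cox6a1, Cox6b1 and Cox8a), so that these 4 were higher in liver than in both. Cox4i1, the widely expressed form of subunit IV, had -0.44 for brain minus liver (adjusted p = 0.012, and -0.39, adjusted p = 0.167, without liver replicates 1, 3 and 4). Cox5a, Cox7b and Cox7a2l, the last known for joining complexes III and IV into supercomplexes, were not called in any contrast.

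ATP synthase is built of the F1 part (a catalytic head and a central stalk), a peripheral stalk and a membrane part. Of the 5 subunits of the F1 part, 1 was lower in brain than in liver and another was lower in heart than in liver. All genes had 14% and 16.3% lower in these contrasts. The median difference of the 5 F1 subunits was -0.24 for brain minus liver and -0.21 for heart minus liver. That of the 9 subunits of the peripheral stalk and membrane part was -0.36 and -0.26. A difference between the parts was not tested. The catalytic subunit Atp5b had values of 10.59 to 11.07 in brain (median 10.86), 10.80 to 10.90 in heart (median 10.83) and 10.80 to 11.00 in liver (median 10.84), with differences of -0.01, -0.04 and -0.03 that were not called. The called F1 subunits were Atp5e and Atp5d, both of the central stalk. Atp5e was lower in brain than in liver (-0.43, adjusted p = 0.0258). Atp5d was lower in heart than in liver (-0.49, adjusted p = 0.0098, and -0.29, adjusted p = 0.189, without liver replicates 1, 3 and 4). The 3 genes of the c ring, Atp5g1, Atp5g2 and Atp5g3, which encode the same mature protein, were not called either. Atp5g1 stood at 9.50 in heart replicate 1 and at 8.45 to 8.82 in the other heart arrays.

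Of the 9 subunits of the peripheral stalk and membrane part, 7 were lower in brain than in liver, 4 were lower in heart, and 4 were higher in liver than in both (Atp5h, Atp5l, Atp5mpl and Atp5pb). Atp5h, subunit d of the peripheral stalk, had values of 10.50, 10.58, 10.43, 10.58 and 10.69 in brain, 10.51, 10.61, 10.53, 10.56 and 10.54 in heart, and 11.07, 11.03, 11.03, 10.99 and 11.03 in liver. The liver arrays spanned 10.99 to 11.07, above all others. Brain minus liver was -0.47 (SE 0.06, adjusted p = 1.58e-05) and heart minus liver was -0.48 (adjusted p = 1.6e-05). Atp5md, known as DAPIT and needed for ATP synthase dimers, averaged 10.99 ± 0.15 (brain), 11.30 ± 0.07 (heart) and 11.46 ± 0.10 (liver). It was lower in brain than in heart (-0.31, adjusted p = 0.0134, and -0.34, adjusted p = 0.0802, with pan-endothelial centring) and lower in brain than in liver (-0.47, adjusted p = 0.000211). The stalk subunit Atp5j was the exception in sign, at 10.47 to 10.78 in brain, 10.76 to 10.89 in heart and 10.48 to 10.72 in liver, with 0.20 for heart minus liver (adjusted p = 0.0627).

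The fit was repeated without liver replicates 1, 3 and 4 because macrophage and Kupffer cell markers were highest there. In liver replicates 1 to 5 the mean of those 11 markers was 7.96, 5.99, 8.51, 8.09 and 5.58, that of the 13 hepatocyte markers was 7.19, 7.36, 7.06, 6.94 and 7.63, and that of the common subunits was 9.90, 9.65, 9.88, 9.75 and 9.79. With liver replicates 2 and 5 alone, 15 members were lower in brain than in liver (9.1% of all genes) and 11 were lower in heart (9.2%), and the medians over the 81 members were -0.19 and -0.20, against -0.26 and -0.27 with all liver arrays. The shares of all genes were 14% and 16.3% with all liver arrays. Fewer arrays give less power, so a call lost in this setting does not show that a difference was absent. Ndufb9, Ndufb6, Ndufs4, Cox8a, Uqcrq and Atp5h kept both calls in this setting and in all 25 alternatives other than the log2 minimum. Of the 13 hepatocyte markers, 11 exceeded both other tissues in liver. Among them Alb, which encodes serum albumin, averaged 4.19 ± 0.07 (brain), 4.26 ± 0.19 (heart) and 9.88 ± 0.37 (liver). The others were Ttr, highest in brain (12.49 ± 0.30, against 8.44 ± 0.87 in liver), and Cyp2e1, level in brain and liver (6.72 ± 0.62 and 6.66 ± 0.48). The part of macrophage, Kupffer cell or hepatocyte RNA in the differences was not tested.

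Lists of genes that serve the same complexes were set against liver in the same way. Their counts stand beside 14% of all genes lower and 11.1% higher in brain than in liver, and 16.3% lower and 11.5% higher in heart than in liver. Atpif1, the inhibitor of ATP hydrolysis by ATP synthase, averaged 10.98 ± 0.22 (brain), 11.15 ± 0.09 (heart) and 11.83 ± 0.13 (liver), with -0.85 for brain minus liver (adjusted p = 3.05e-06) and -0.68 for heart minus liver (adjusted p = 4.73e-05). Of 77 mitochondrial ribosome genes, 30 were lower in brain than in liver and 44 were lower in heart, with medians of -0.28 and -0.37, and 28 were higher in liver than in both, beside 10.4% of all genes; 1 was higher in brain than in liver and 1 higher in heart. Of 17 complex I assembly genes, 2 were higher and 4 lower in brain than in liver, and 8 were lower in heart than in liver. Of 10 assembly genes of complexes II and III, 1 was lower in brain and 7 were lower in heart than in liver. Of 21 assembly genes of complexes IV and V, 2 were higher and 5 lower in brain, and 1 was higher and 11 lower in heart. Of 17 genes of mitochondrial biogenesis and transcription, 1 was higher and 4 were lower in each of brain and heart than in liver, with medians of -0.08 and 0.04. Of 15 measured tricarboxylic acid cycle genes, 1 was lower in brain and 3 lower in heart than in liver, shares near or below those of all genes. Among the 3 was Cs, citrate synthase (heart minus liver -0.46, adjusted p = 0.00642, and -0.33, adjusted p = 0.172, without liver replicates 1, 3 and 4). Of the mitochondrially encoded subunits, COX2 and ND3 had probe sets with 1 symbol, and neither was called in any contrast.

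Between brain and heart, 4 of the 17 complex I assembly genes were higher in brain and 1 was lower, and 2 of 10 for complexes II and III and 2 of 21 for complexes IV and V were higher, beside 8.29% of all genes higher and 7.11% lower. Atpaf1, which assembles the F1 part, averaged 7.41 ± 0.17 (brain), 6.64 ± 0.15 (heart) and 8.06 ± 0.20 (liver). Brain minus heart was 0.77 (adjusted p = 4.99e-05), brain minus liver was -0.66 (adjusted p = 0.000146) and heart minus liver was -1.42 (SE 0.11, adjusted p = 1.46e-08). Ndufaf7, a methyltransferase for a complex I core subunit, averaged 8.20 ± 0.19 (brain), 7.34 ± 0.14 (heart) and 7.77 ± 0.16 (liver), with 0.86 for brain minus heart (adjusted p = 8.45e-06). The complex I assembly gene lower in brain was Tmem126a, with -0.46 for brain minus heart (adjusted p = 0.00478). Uqcc2, an assembly factor of complex III, was higher in brain than in heart by 0.82 (adjusted p = 0.00622), and by 0.47 (adjusted p = 0.0164) with the mean of its probe sets. Among regulators of mitochondrial content, Top1mt, the mitochondrial DNA topoisomerase, had -0.79 for brain minus liver (adjusted p = 1.5e-05) and -0.78 for heart minus liver (adjusted p = 2e-05). Ppargc1a, a coactivator of mitochondrial biogenesis, averaged 5.18 ± 0.74 (brain), 4.81 ± 0.47 (heart) and 4.29 ± 0.09 (liver), higher in brain than in liver by 0.88 (adjusted p = 0.026). These means lay below 6.11, the median level of all genes, and the gene was left out by the filter on low values. Brain replicate 1 stood at 6.49 and the other brain arrays at 4.68 to 5.00, and without that array the difference was 0.56 (adjusted p = 0.0302). With the mean of the probe sets of Ppargc1a it was 0.53, and the call was lost without liver replicate 1, without liver replicate 3 and without liver replicates 1, 3 and 4 (adjusted p = 0.0539, 0.052 and 0.207).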

How the data were processed

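Gene expression was measured on 15 arrays, 5 each of brain, heart and liver endothelial cells, grouped by the titles of the samples. The deposited table holds the authors' log2 values of 35556 probe sets, made by RMA with Affymetrix Power Tools per the submitters' processing notes. Their versions and the build were not given in the sources used. Per the labels, 5 ng of RNA per sample was amplified before labelling. RMA forces arrays to like distributions and compresses large differences, and with scanner files not used here no probe set was tested against background. Of the probe sets, 21789 carried 1 symbol, 1621 several, and 12146 are unnamed here. The members had 105 probe sets, and for the 16 members with over 1 the probe set with the highest mean was kept; all probe sets of a member had 1 sign in 14, 15 and 16 of the 16 for brain minus heart, brain minus liver and heart minus liver. Levels of different genes were not compared. Close relatives such as Atp5g1 to Atp5g3 are uncertain where probes bind more than 1 of them.

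A linear model with 1 mean for each tissue was fitted over the 15 arrays in limma 3.58.1 in R 4.3.3 (lmFit, eBayes; 12 residual and 4.75 prior degrees of freedom), with p-values adjusted over 19938 genes. Nothing in the labels says more of the samples than that they are separate pools, so p-values measure the spread between these pools; 5 arrays a tissue limit the precision. On simulated data 61% and 96% of genes changed by 0.5 and 1 were recovered for brain minus liver, and 64% and 96% for heart minus liver, with 4.27% and 4.76% false calls. The simulation changed a small share of the genes, in liver only and with independent normal noise, and no gene by less than 0.5. Its rates need not hold for the smaller differences of most members. Members, lists, markers and tests were chosen with earlier results of these data known. Genes were named by rule: the isoform families, up to 2 called members with the largest difference per complex and contrast, all complex II subunits, the members called enriched, and the leading called genes of each pathway list. Other names were picked outside these rules or serve to list a count. The markers given by name, such as Rgs5, Myl9, Abcc9, Tnnt2 and Alb, were picked, and not every picked name is marked. Alternatives were repeated quantile normalization, median centring, centring on pan-endothelial genes, trend and robust eBayes, a filter on low values, the mean of all probe sets, only the tissues compared, a replicate block, a log2 minimum of 1, each array left out, heart replicates 1 and 3 left out, and, added after seeing the data, liver replicates 1, 3 and 4 left out.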

Additional observations from a re-analysis of the deposited data

Results flagged for a closer look

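In 5 of 129 groups of 5 arrays examined, 1 array stood apart from the other 4, and chance alone flags about 1 in 20 groups. Cox6b2 was at 6.30 in brain replicate 1 and at 5.31 to 5.55 in the other brain arrays. Uqcr10 was at 9.05 in heart replicate 3 and at 8.56 to 8.69 in the other heart arrays. In liver replicate 2, Uqcr11 was at 8.46 against 8.95 to 9.10 in the other liver arrays and Ndufb5, a membrane arm subunit of complex I, was at 10.17 against 10.52 to 10.62. Sdhd was at 7.60 in liver replicate 1 and at 7.26 to 7.34 in the other liver arrays.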

How the results depend on the processing

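No called difference of the 81 members, or of the 8 pathway genes Atpif1, Atpaf1, Ndufaf7, Uqcc2, Tmem126a, Top1mt, Ppargc1a and Cs, changed sign in the 25 alternatives other than the log2 minimum. Ppargc1a, left out by the filter on low values, was fitted in 24 of these alternatives. Of 51 calls of the genes named by rule or picked, 27 held under all 25 alternatives other than the log2 minimum. The count lower in brain than in liver (37) was 21 with centring on the pan-endothelial list and 15 without liver replicates 1, 3 and 4. These were 25.9% and 18.5% of members, beside 11.1% and 9.1% of all genes. The count lower in heart than in liver (42) was 20 with that centring, 14 with quantile normalization repeated (median -0.14) and 11 without those liver arrays. These were 24.7%, 17.3% and 13.6% of members, beside 11.8%, 13.8% and 9.2% of all genes. The count higher in liver than in both (30) was 13, 12 and 9 in these settings. For this last count the share of all genes is given only for the main fit (10.4%). With a log2 minimum of 1, the counts higher and lower were 0 and 3 for brain minus heart, 0 and 0 for brain minus liver, and 3 and 0 for heart minus liver. For brain minus heart, 1 higher and 7 lower became 0 and 4 with pan-endothelial centring, 0 higher with quantile normalization repeated, 2 higher with the replicate block and 4 lower without heart replicates 1 and 3. Without those 2 arrays 3 members were higher in heart than in both, 1 was enriched there, and 1 was lower in brain than in both; that last count (2) was also 1 with median centring and 1 without the liver arrays, and 0 with pan-endothelial centring. With only the tissues compared, 3 members were higher in brain than in liver and 3 lower in liver than in both. With the liver arrays left out, 1 member was depleted in liver.

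Leaving out 1 array at a time, the medians ranged from -0.03 to 0.01 for brain minus heart, -0.32 to -0.23 for brain minus liver and -0.31 to -0.24 for heart minus liver. Counts higher and lower ranged over 0 to 2 and 5 to 7, over 1 to 2 and 31 to 42, and over 5 to 6 and 32 to 45 for these contrasts. Members higher in liver than in both ranged over 21 to 35, higher in heart over 4 to 5, lower in brain over 1 to 3, lower in heart over 0 to 1 and enriched in heart over 2 to 3. Same-numbered samples of different tissues had correlated deviations over 0.1 in 6 of 15 pairs (-0.00053 to 0.204, against -0.167 to 0.126 for different numbers), and 14 of the 15 were above 0. All 3 pairs of replicate 5 were over 0.1, and in 20 of 30 combinations of a sample with another tissue the same number correlated best. Not every pair was over 0.1 and the labels do not say that numbers mark shared mice or days, so the samples were not treated as paired. With the replicate block, 41 members were lower in brain than in liver, 45 lower in heart than in liver, and 1 lower in heart than in both other tissues; Atp5d was then also lower in brain than in liver (-0.34, adjusted p = 0.0137, against 0.074), and so higher in liver than in both. The causes of these changes were not tested. The number of arrays, 5 per tissue, limits what could be called, and low isoforms such as Cox7b2 cannot be told from background here.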
